A study of Mus musculus with 3 samples.

Results

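The schlafen genes Slfn1, Slfn2, Slfn3, Slfn4, Slfn5, Slfn8 and Slfn9 were examined in RNA from purified brain vessels. These 7 genes, of 29917 genes with a named transcript, were chosen from the measured values, because Slfn4 was among the genes with the largest ratios of the Cx30-/- library to both wild-type (WT) libraries, and the other family members were taken with it by name. Their ratios in those 2 comparisons are therefore a description. Cx30 (connexin 30, gene Gjb6) is a gap junction protein of astrocytes, the glial cells whose endfeet cover brain vessels, and the Cx30-/- mice lack it in every cell type. Each of the 3 groups was 1 RNA-seq library made from the pooled vessels of 3 male mice aged 3 months: C57BL6 WT, C57BL6-BALB/c WT (a mixed background) and Cx30-/-. For the Cx30-/- mice the sample labels give the C57BL6 background and the study's methods the mixed one, so both WT libraries were used as controls.

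Schlafen genes are a rodent-expanded family that encodes proteins of immune and other cells, and many members are induced by type I interferon. The short members Slfn1 and Slfn2 are known for holding T lymphocytes in a resting state. The intermediate members Slfn3 and Slfn4 are best known from T lymphocytes and from myeloid cells such as macrophages and neutrophils, and the long members Slfn5, Slfn8 and Slfn9 carry in addition a helicase-like part. In brain vessels the cells that could carry these transcripts include endothelial cells, perivascular macrophages and blood leukocytes left in the vessels. In bulk RNA, fewer cells of a type and less RNA per cell cannot be told apart.

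The deposited counts of Gjb6 were 2899, 2246 and 96 in the C57BL6 WT, C57BL6-BALB/c WT and Cx30-/- libraries, low in the library labelled as the deletion. The counts over all transcripts summed to between 50375426 and 60725557 per library. Endothelial markers (10 of 10) and mural markers (10 of 10) passed the minimum used here, which is a normalized count of 50 or more in either library of a comparison, and so did 7 of 7 astrocyte and 8 of 8 neuron markers, so the vessel preparations also held RNA of brain tissue. Values below are counts divided by a size factor (normalized counts). With 1 library in each group there is no replicate spread and no test. Intervals are exact 95% intervals that cover the counting error of the reads only, and a gene was called higher or lower in a comparison when it passed the minimum and differed at least 2-fold.

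All 7 genes lie in 1 cluster of 263.8 kb on chromosome 11, between positions 82951349 and 83215154 of the mouse genome build GRCm38. The cluster also holds the pseudogene Slfn10-ps and, across Slfn5, the antisense transcript Slfn5os. In the GENCODE annotation the coding sequence was 337 codons long for Slfn1 and 378 for Slfn2, 517 for Slfn3 and 602 for Slfn4, 884 for Slfn5, and 910 for both Slfn8 and Slfn9. Several pairs of members share long stretches of sequence, within a class or across classes, while others such as Slfn5 and Slfn8 share at most 22 identical coding bases in a row. The 3 longest identical coding stretches are shown here because a 50-base read that falls inside one matches both genes, and reads with more than 1 match were removed before counting.
Slfn8 and Slfn9, 139 bases: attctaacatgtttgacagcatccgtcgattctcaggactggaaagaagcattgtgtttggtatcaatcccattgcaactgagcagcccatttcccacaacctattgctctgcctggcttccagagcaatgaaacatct
Slfn2 and Slfn4, 101 bases: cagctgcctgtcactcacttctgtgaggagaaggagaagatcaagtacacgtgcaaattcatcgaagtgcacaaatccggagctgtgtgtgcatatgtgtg
Slfn3 and Slfn4, 95 bases: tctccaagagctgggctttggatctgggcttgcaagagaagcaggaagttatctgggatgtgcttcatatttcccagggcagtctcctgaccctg
The stretch of Slfn3 and Slfn4 runs from coding position 1064 to 1158 of Slfn3 and from 1301 to 1395 of Slfn4, counted from the A of the start codon. It lies in the last exon of both genes, at chr11:83214611-83214705 and chr11:83188786-83188880 on the plus strand. The stretch of Slfn8 and Slfn9 lies in their last exons, at chr11:83003134-83003272 and chr11:82981231-82981369 on the minus strand. The stretch of Slfn2 and Slfn4 lies in exon 2 of 2 of Slfn2, at chr11:83070097-83070197, and in exon 7 of 8 of Slfn4, at chr11:83187333-83187433.

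Slfn4 (ENSMUSG00000000204) was the member with the largest difference. It lies at chr11:83175186-83190216 on the plus strand. Its normalized count was 20.1 in C57BL6 WT, 25.9 in C57BL6-BALB/c WT and 141.6 in Cx30-/-, from 23, 24 and 135 reads. The Cx30-/- library stood apart, and both WT libraries lay close together. The ratio of Cx30-/- to C57BL6 WT was 7.05-fold, a log2 ratio of 2.82 (95% interval 2.17 to 3.52). Against C57BL6-BALB/c WT it was 5.46-fold, a log2 ratio of 2.45 (1.82 to 3.14), and between the WT libraries the log2 ratio of C57BL6-BALB/c to C57BL6 was 0.37 (-0.52 to 1.26). Slfn4 passed the minimum of 50 only through the Cx30-/- library, where it is high, so among the genes considered it had to differ. By the smaller of its 2 log2 ratios it ranked 2 of the 14688 genes that passed the minimum in both comparisons with Cx30-/-. More of the transcript was covered in the Cx30-/- library: of its 3963 bases, 832 were covered in C57BL6 WT, 900 in C57BL6-BALB/c WT and 2409 in Cx30-/-, which is 21.0%, 22.7% and 60.8%.

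The plot of normalized counts shows all members side by side.

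**Figure D1:**
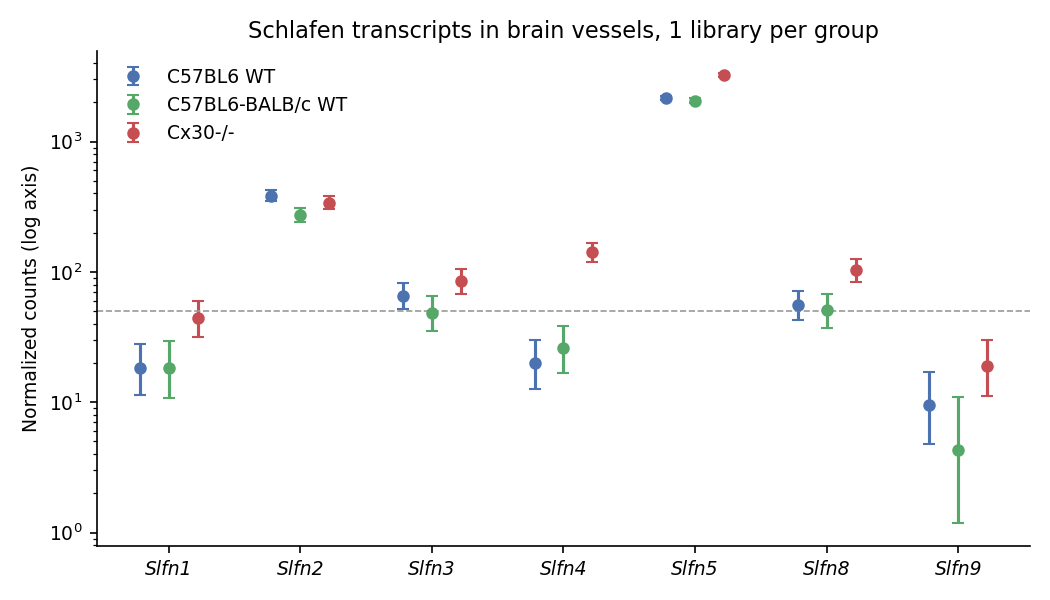
Normalized counts (logarithmic axis) of the 7 schlafen genes in the 3 libraries, 1 library per group; bars are exact 95% Poisson intervals of the reads and the dashed line marks the minimum of 50. Slfn4 was at 20.1 and 25.9 in the WT libraries and 141.6 in the Cx30-/- library, while Slfn2 was highest in C57BL6 WT at 385.1.

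Slfn3 (ENSMUSG00000018986, chr11:83191330-83215154, plus strand), the neighbour of Slfn4 and its closest relative, stayed under 2-fold. Its normalized count was 65.5 in C57BL6 WT, 48.6 in C57BL6-BALB/c WT and 85.0 in Cx30-/-. The Cx30-/- value was the highest, under 2-fold in both comparisons. The log2 ratio to C57BL6 WT was 0.38 (-0.10 to 0.85) and the one to C57BL6-BALB/c WT was 0.81 (0.26 to 1.36). The first of these intervals includes no difference. Of the 50-base windows of the Slfn3 transcript, 72.5% matched another gene of the locus with at most 2 mismatches, 55.7% matched Slfn4 and 41.3% the neighbouring transcript Gm11427. The covered length was 890, 661 and 807 of the 1816 bases in C57BL6 WT, C57BL6-BALB/c WT and Cx30-/-. The part of the shared windows in these counts was not tested.

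The short member Slfn2 (ENSMUSG00000072620, chr11:83065112-83070678, plus strand) was the only member whose highest value was not in the Cx30-/- library. Its normalized count was 385.1 in C57BL6 WT, 274.3 in C57BL6-BALB/c WT and 339.9 in Cx30-/-. The Cx30-/- library lay between the WT libraries, at a log2 ratio of -0.18 (-0.39 to 0.03) to the first and of 0.31 (0.07 to 0.55) to the second. The first of these intervals includes no difference. The log2 ratio of Slfn2 between the WT libraries, -0.49 (-0.72 to -0.26), was larger in size than either. Slfn1 (ENSMUSG00000078763, chr11:83116849-83122670, plus strand), the other short member, had 21, 17 and 42 reads, or 18.3, 18.4 and 44.1 normalized counts. The WT values lay together and the Cx30-/- library was 2.4-fold higher than each, with log2 ratios of 1.26 (0.48 to 2.10) and 1.26 (0.42 to 2.17), but Slfn1 stayed under the minimum of 50 in all 3 libraries and was not called.

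Slfn5 (ENSMUSG00000054404, chr11:82951349-82964840, plus strand) gave most of the schlafen reads. Its normalized count was 2156.8 in C57BL6 WT, 2061.9 in C57BL6-BALB/c WT and 3226.9 in Cx30-/-, from 2470, 1909 and 3076 reads. The WT libraries differed little, with a log2 ratio of -0.06 (-0.15 to 0.02), and the Cx30-/- library was higher than both. Its log2 ratio to C57BL6 WT was 0.58 (0.50 to 0.66) and its log2 ratio to C57BL6-BALB/c WT was 0.65 (0.56 to 0.73), about 1.5-fold, which is under the 2-fold threshold although the counting error is small. Slfn5os, transcribed from the other strand across Slfn5, was at 188.6 in C57BL6 WT, 151.2 in C57BL6-BALB/c WT and 283.2 in Cx30-/- after normalization. Its log2 ratios to C57BL6 WT and C57BL6-BALB/c WT were 0.59 (0.32 to 0.85) and 0.91 (0.61 to 1.21). The libraries did not keep the strand, so reads of Slfn5 and Slfn5os cannot be told apart where they overlap.

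The long members Slfn8 and Slfn9 had fewer reads. Slfn8 (ENSMUSG00000035208, chr11:83002158-83020810, minus strand) had 55.9, 50.8 and 102.8 normalized counts in C57BL6 WT, C57BL6-BALB/c WT and Cx30-/-. The Cx30-/- value was the highest and stood at the threshold: its log2 ratio of 1.02 (0.50 to 1.55) against C57BL6-BALB/c WT lay just inside 2-fold, and that of 0.88 (0.41 to 1.36) against C57BL6 WT just outside. Slfn9 (ENSMUSG00000069793, chr11:82978390-82991830, minus strand) had 11, 4 and 18 reads, or 9.6, 4.3 and 18.9 normalized counts, and was under the minimum in each library. Its log2 ratio to C57BL6-BALB/c WT, 2.13, had an interval of 0.53 to 4.15, and that to C57BL6 WT, 0.98, one of -0.19 to 2.20. The pseudogene Slfn10-ps, which shares 34.5% of the windows of Slfn8 with at most 2 mismatches, had 10, 3 and 19 reads. Slfnl1, a related gene on chromosome 4, had 5, 3 and 7 reads. Slfn14 was not analysed here.

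Counted over the family, 6 of 7 members had their highest normalized count in the Cx30-/- library, all but Slfn2. Of the 5 that passed the minimum (Slfn2, Slfn3, Slfn4, Slfn5 and Slfn8), 4 did so, beside 37.1% of all genes past the minimum. At least 2-fold higher in Cx30-/- were 1 of the 5 against C57BL6 WT (Slfn4), beside 1.42% of all genes tested, and 2 of the 5 against C57BL6-BALB/c WT (Slfn4 and Slfn8), beside 3.96%. None of the 5 was called lower, where the shares over all genes were 1.26% and 4.73%. Slfn4 alone was called higher than both WT libraries, beside 0.742% of all genes. Between the WT libraries 4 of the 5 passed the minimum, all but Slfn4, which was under 50 in both and could not be called. None of these 4 was called, beside 1.41% of genes called higher and 2.02% called lower in C57BL6-BALB/c WT. Nothing is read from these shares in the comparisons with Cx30-/-, since those values chose the family. The plot of log2 ratios shows that the interval of Slfn4 lay above 2-fold in both comparisons with Cx30-/-, and that this held for no other member.

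**Figure D2:**
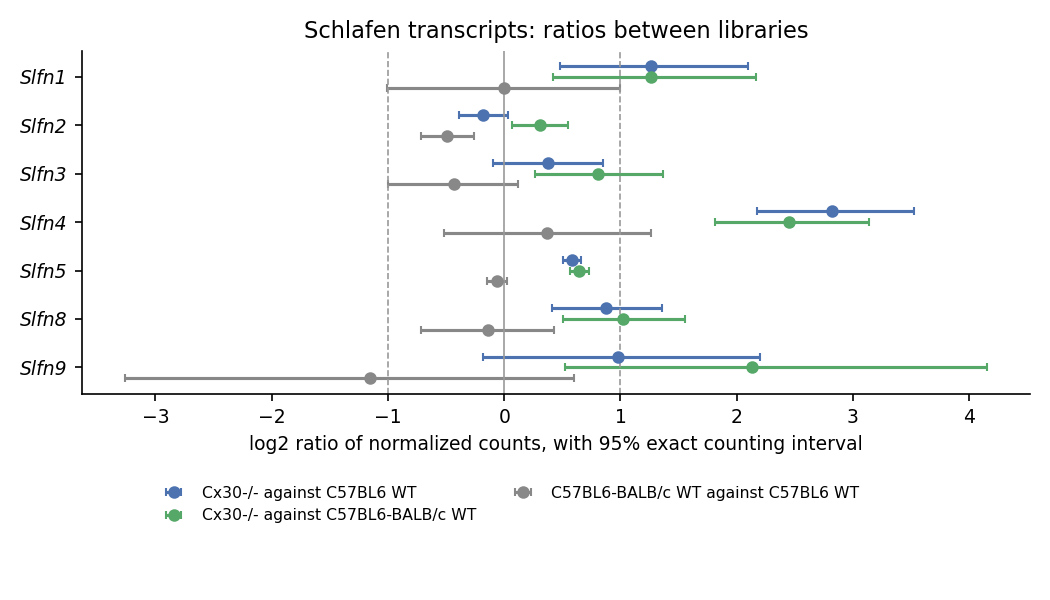
Log2 ratios of normalized counts for the 7 schlafen genes in the 3 comparisons between libraries, with exact 95% counting intervals; the solid line is no difference and the dashed lines are 2-fold. The ratio of Slfn4 was 2.82 and 2.45 in the comparisons of Cx30-/- with the WT libraries and 0.37 between the WT libraries; Slfn9, with 4 to 18 reads, has the widest intervals.

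The levels of the members relative to each other, compared as normalized counts per kilobase of transcript, followed the same order in both WT libraries: Slfn5, Slfn2, Slfn3, Slfn8, Slfn1, Slfn4 and Slfn9. In the C57BL6 WT library these levels were 528.64, 231.42, 36.06, 13.93, 9.84, 5.07 and 2.12 per kilobase. Slfn8 and Slfn1 had overlapping counting intervals there, and so did Slfn1 and Slfn4, and Slfn4 and Slfn9. In the Cx30-/- library Slfn4 was at 35.74 per kilobase (29.96 to 42.30), after Slfn5 at 790.90, Slfn2 at 204.26 and Slfn3 at 46.79 (37.16 to 58.16). It thus stood before Slfn8 at 25.63 (20.81 to 31.24), Slfn1 at 23.64 (17.04 to 31.95) and Slfn9 at 4.17, although its interval overlapped those of Slfn3, Slfn8 and Slfn1. Per-length levels do not correct for windows that match other genes, and the part of these windows in the order was not tested. Of all reads on the 7 members, Slfn4 took 0.741% (exact binomial 95% interval 0.470 to 1.11) in C57BL6 WT, 1.04% (0.670 to 1.55) in C57BL6-BALB/c WT and 3.58% (3.01 to 4.22) in Cx30-/-. Slfn5 took 79.5%, 83.0% and 81.5%. The normalized counts of the 7 members summed to 2711.3, 2484.3 and 3959.1, and without Slfn5 to 554.5, 422.3 and 732.2.

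How far a member can be counted at all depends on its relatives. At most 2 mismatches to another gene of the locus were found for 3.9% of the 50-base windows of Slfn1, 15.8% of Slfn2, 72.5% of Slfn3, 30.0% of Slfn4, 8.0% of Slfn5, 47.7% of Slfn8 and 33.4% of Slfn9. For Slfn4 the partner was mostly Slfn3, with 25.2% of its windows, and for Slfn8 it was Slfn9, with 37.8%, and Slfn10-ps. The Slfn5 transcript had 11.8% of its windows in identical form in another gene: 467 of these 700 windows were found in Slfn5os, which overlaps it, and 233 in other genes only. The annotated Slfn5 transcript searched was 5979 bases long and the counted one 4080. For Slfn9 these lengths were 5769 and 4530, so the shares of Slfn5 and Slfn9 are approximate. Counts of Slfn3, Slfn4, Slfn8 and Slfn9 are therefore uncertain to the extent that reads were removed or placed at a relative.

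**Figure D3:**
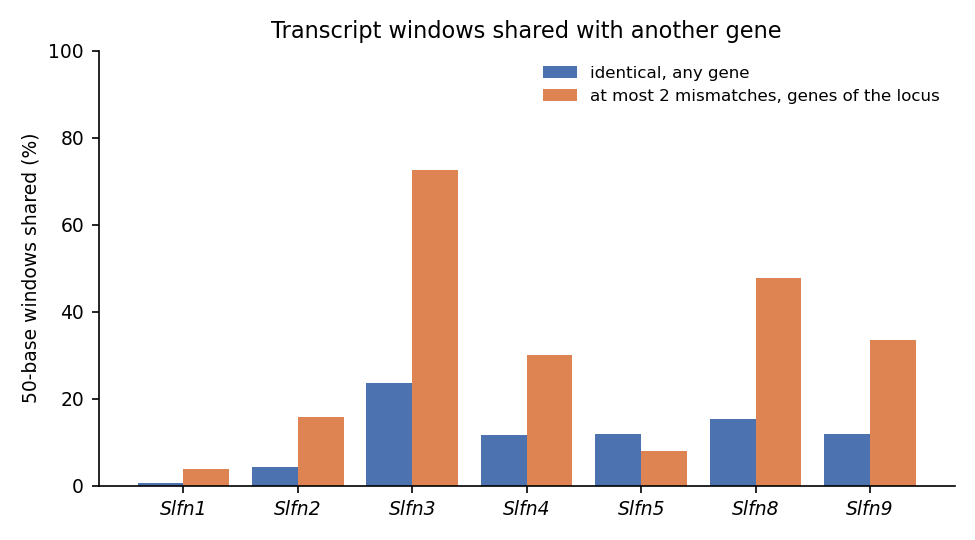
Percent of the 50-base windows of each schlafen transcript that occur identically in any other annotated gene (blue) or match another gene of the schlafen locus with at most 2 mismatches (orange). Slfn3 shares 72.5% of its windows at 2 mismatches and Slfn4 30.0%, against 3.9% for Slfn1.

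The genes around the cluster were mostly under 2-fold. Of 28 other annotated genes in the cluster or within 300 kb on either side of it, 14 passed the minimum. Against C57BL6 WT none of these 14 was called, beside 1.42% of all genes called higher and 1.26% called lower. Their log2 ratios ran from -0.53 (Fndc8) to 0.84 (Gas2l2), with a median of -0.06. Against C57BL6-BALB/c WT, Unc45b, a myosin chaperone, was called higher at 1.01 and Fndc8 lower at -1.21, with a median of -0.05. Over all genes, 3.96% were called higher and 4.73% lower in that comparison. Within the cluster itself, Slfn2 at -0.18 and Slfn4 at 2.82 against C57BL6 WT lie on the same strand with Slfn1 between them.

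**Figure D4:**
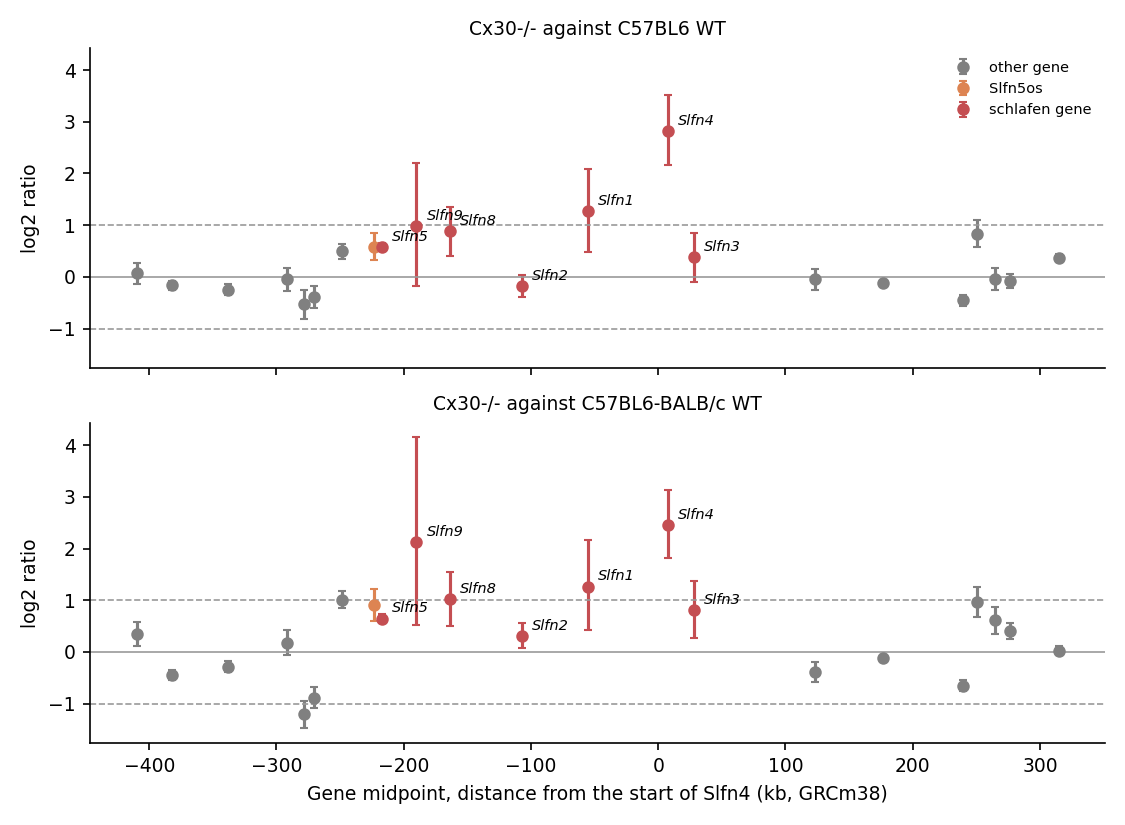
Log2 ratio of each schlafen gene, of Slfn5os and of neighbouring genes past the minimum, against the distance of the gene's midpoint from the start of Slfn4 in kb, for Cx30-/- against C57BL6 WT (top) and against C57BL6-BALB/c WT (bottom), with 95% counting intervals; dashed lines are 2-fold. Slfn4 (2.82 and 2.45) stands above its neighbours, of which the 14 others ran from -0.53 to 0.84 in the top panel.

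The promoters were searched because members of 1 cluster differed in their ratios. The RefSeq windows (GRCm38.p6) of each gene, from 250 bases before to 50 after a start (1 start a gene, and 2 for Slfn8), were read on both strands for GAAANNGAA (the core of the interferon-stimulated response element, ISRE), TTCNNNGAA (bound by STAT factors), GAGGAAGT (bound by PU.1, a factor of myeloid cells), TTGCNNAA (bound by C/EBP factors) and TATAAA (the TATA box). Of 32851 mouse promoter windows, 8.56%, 8.3%, 3.2%, 10.8% and 13.6% hold them. The windows of Slfn4 and of the 3 long genes are printed 5′ to 3′ on the gene's strand, with matches in capitals.
Slfn4, chr11:83174936-83175235, plus strand: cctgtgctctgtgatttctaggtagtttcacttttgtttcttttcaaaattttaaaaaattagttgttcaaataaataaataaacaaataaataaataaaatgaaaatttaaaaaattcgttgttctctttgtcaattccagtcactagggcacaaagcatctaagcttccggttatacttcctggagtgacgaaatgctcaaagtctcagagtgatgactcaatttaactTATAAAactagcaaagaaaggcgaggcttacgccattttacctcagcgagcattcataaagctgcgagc
Slfn5, chr11:82951852-82952151, plus strand: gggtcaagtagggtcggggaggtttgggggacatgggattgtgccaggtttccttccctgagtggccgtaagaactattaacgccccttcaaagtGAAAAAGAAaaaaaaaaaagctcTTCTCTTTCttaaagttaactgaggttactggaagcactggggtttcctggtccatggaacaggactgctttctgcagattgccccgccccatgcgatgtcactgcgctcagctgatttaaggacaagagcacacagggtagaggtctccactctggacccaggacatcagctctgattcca
Slfn8, chr11:83020761-83021060, minus strand: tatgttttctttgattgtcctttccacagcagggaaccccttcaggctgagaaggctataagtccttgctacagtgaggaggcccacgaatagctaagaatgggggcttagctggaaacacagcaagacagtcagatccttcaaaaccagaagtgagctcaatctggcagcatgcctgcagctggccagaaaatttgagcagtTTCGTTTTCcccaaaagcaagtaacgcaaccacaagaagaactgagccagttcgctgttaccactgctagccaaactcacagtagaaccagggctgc
Slfn9, chr11:82991781-82992080, minus strand: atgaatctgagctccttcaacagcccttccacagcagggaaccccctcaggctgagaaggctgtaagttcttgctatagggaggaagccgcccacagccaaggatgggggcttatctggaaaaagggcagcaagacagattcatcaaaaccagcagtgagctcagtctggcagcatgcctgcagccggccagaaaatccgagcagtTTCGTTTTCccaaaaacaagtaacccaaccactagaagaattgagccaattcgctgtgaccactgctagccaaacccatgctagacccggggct
The ISRE letters were found in the windows of the 3 long genes, with 2 matches in Slfn5 (-155 and -132 from the start), 1 in Slfn8 (-47 from the start of the window printed and -135 from the other start) and 1 in Slfn9 (-44). The match in Slfn8 and Slfn9 is TTCGTTTTC in both. The Slfn4 window held a TATA box (-19) and none of the other 4 motifs, the windows of Slfn2 and Slfn3 held 1 C/EBP match each, and that of Slfn1 none of the 5. A match is a description of the letters and not a binding site.

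Genes of the interferon pathway, from the ligands to the genes they induce, were listed as background to the family. Of 11 interferon ligand genes in the files none passed the minimum and 7 had no read in any library. None of 5 interferon receptor genes past the minimum was called against either WT library, and the median log2 ratio was 0.18 against C57BL6 WT and 0.64 against C57BL6-BALB/c WT, beside -0.01 and 0.00 for all genes. Of 15 signalling genes none was called against C57BL6 WT. Against C57BL6-BALB/c WT the 2 called, both higher, were Irf7, a transcription factor of the interferon response, and Socs1, an inhibitor of cytokine signalling. Socs1, at 27.0 normalized counts in C57BL6-BALB/c WT and 67.1 in Cx30-/-, passed the minimum there only through Cx30-/- and had to be higher. In these comparisons 1.42% and 3.96% of all genes were called higher, and 1.26% and 4.73% lower.

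Of 43 interferon-induced genes in the files 41 passed the minimum, of which 2 were higher against C57BL6 WT and 15 against C57BL6-BALB/c WT, with none lower in either comparison. Over all genes 1.42% and 3.96% were higher. The median log2 ratios were 0.18 and 0.81, beside 0.19 and 0.87 for the endothelial markers. The 2 genes higher against both, beside 0.742% of all genes, were Xaf1, a regulator of apoptosis, at 634.8, 373.7 and 1347.0 normalized counts in C57BL6 WT, C57BL6-BALB/c WT and Cx30-/-, and Ifitm1, a membrane protein that restricts viruses, at 42.8, 34.6 and 86.0. Ifitm1 passed the minimum only through the Cx30-/- library. Against C57BL6-BALB/c WT so did Mx1, at 34.6 in that library and 82.9 in Cx30-/-, and Cxcl10, at 28.1 and 87.1. These genes of the 15 had to be higher there. Between the WT libraries 12 of 40 were lower in C57BL6-BALB/c WT, beside 2.02% of all genes, and none higher, with a median of -0.83. In that comparison the median was also below 0 for endothelial markers (-0.70, with Cldn5 and Emcn called lower) and for monocyte and macrophage markers (-0.52), and their part in the interferon-induced values was not tested. Between the same libraries the log2 ratio was -0.49 for Slfn2 and -0.43 for Slfn3, against 0.37 for Slfn4 and -0.06 for Slfn5.

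Markers of blood cells were higher in the same library as Slfn4. Of 20 neutrophil markers in the files, 14 passed the minimum, of which 9 were higher in Cx30-/- against each WT library, beside 1.42% (C57BL6 WT) and 3.96% (C57BL6-BALB/c WT) of all genes. Higher against both were 7, beside 0.742%: S100a8, S100a9, Mmp8, Ngp, Camp, Retnlg and Cxcr2. Like Slfn4, 4 of these 7 (Mmp8, Camp, Retnlg and Cxcr2) were under 50 in both WT libraries and passed the minimum only through Cx30-/-, so they had to be higher there, and they also lift the medians. Il1b, at 32.3, 24.8 and 58.7 in C57BL6 WT, C57BL6-BALB/c WT and Cx30-/-, also passed only through Cx30-/-. It is among the 9 against C57BL6-BALB/c WT, and both medians include it. The median log2 ratios were 1.27 against C57BL6 WT and 1.62 against C57BL6-BALB/c WT. S100a8, a calcium-binding protein abundant in neutrophils, was at 121.4, 60.5 and 360.9 normalized counts in C57BL6 WT, C57BL6-BALB/c WT and Cx30-/-, and Ngp, a granule protein, at 102.2, 68.0 and 271.7. Both were highest in the Cx30-/- library. The summed level of the list was 5283.8, 1722.8 and 7651.8, and the largest single value in it was that of Lcn2, which endothelial cells and astrocytes can also express, at 4261.3, 681.6 and 5301.9. Among the markers with few or no reads, Ly6g was at 0.0, 1.1 and 2.1, and Elane, the neutrophil elastase, at 4.4, 1.1 and 4.2. Stfa2 was at 0 in the 3 libraries. Csf3r, at 154.6, 124.2 and 160.5, and Hp, at 117.9, 94.0 and 158.4, passed the minimum and were not called against either WT library. Some markers had another order: Mpo, a peroxidase of neutrophil granules, was at 20.1, 5.4 and 4.2, highest in C57BL6 WT. Ltf, lactoferrin, was at 72.5, 219.3 and 152.1, and Fpr1, a receptor for bacterial peptides, at 48.9, 144.7 and 93.4, both highest in C57BL6-BALB/c WT. The part of neutrophil RNA in the Slfn4 difference was not tested.

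The higher values were not limited to neutrophil markers. Erythroid markers were higher against both WT libraries for 4 of 6 (Hba-a1, Hbb-bs, Hbb-bt and Alas2) and platelet markers for 2 of 8 (Gp9 and Tubb1), again beside 0.742% of all genes. Their median log2 ratios were 1.19 and 2.04 for the erythroid and 0.86 and 1.84 for the platelet list, against C57BL6 WT and C57BL6-BALB/c WT. Hba-a1 and Slc4a1 of the erythroid list and Gp9, Tubb1 and Treml1 of the platelet list passed the minimum only through the Cx30-/- library. These genes had to be higher there, and the medians include them. Of 13 monocyte and macrophage markers past the minimum, Ccr2, the chemokine receptor of blood monocytes, was higher against both WT libraries, at 53.3, 48.6 and 116.4 normalized counts. Against C57BL6-BALB/c WT it passed the minimum only through Cx30-/-. Lyz2 and Mrc1 were higher against C57BL6-BALB/c WT alone. The median ratios of that list were 0.09 and 0.77, and its summed level was 6282.8, 4203.8 and 6536.6. Of 12 T lymphocyte markers 3 passed the minimum and none was called, with summed levels of 627.8, 481.7 and 709.2. Of 6 B lymphocyte markers in the files 1 passed, with sums of 164.2, 212.8 and 231.8. All 10 endothelial markers were highest in Cx30-/-, beside 37.1% of all genes past the minimum, with medians of 0.19 and 0.87. None of them was called against C57BL6 WT, and 3 (Cldn5, Emcn and Slco1a4) were called higher against C57BL6-BALB/c WT. In those comparisons 1.42% and 3.96% of all genes were called higher. The mural list had medians of 0.22 and 0.31, the astrocyte list -0.23 and -0.17, and the neuron list -0.44 and -0.79. The part of these shifts in the ratios of the schlafen genes was not tested.

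**Figure D5:**
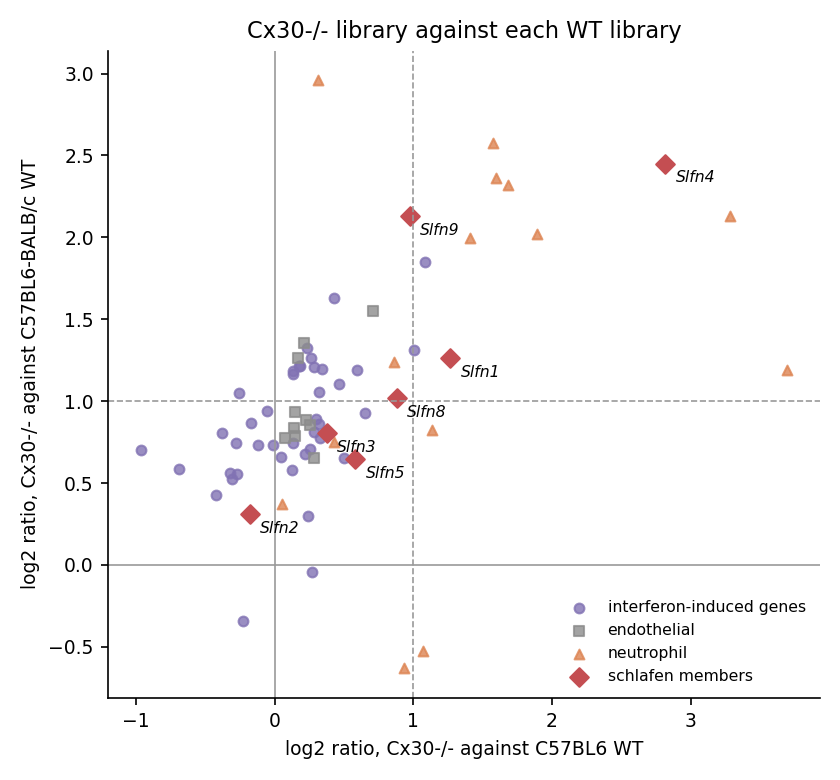
Log2 ratio of Cx30-/- to C57BL6 WT (horizontal) and to C57BL6-BALB/c WT (vertical) for the 7 schlafen genes and for interferon-induced, endothelial and neutrophil genes past the minimum; dashed lines are 2-fold. Both axes share the Cx30-/- library, so points away from 0 on both are partly the same measurement; Slfn4 (2.82 and 2.45) lies in the upper right with Mmp8 (3.28 and 2.13) the nearest of the genes drawn, S100a8 is at 1.57 and 2.58, and Slfn5 is at 0.58 and 0.65.

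The genes nearest to Slfn4 by both ratios, out of those that reached 50 normalized counts in any library, were Mlycd, Mmp8, Glb1l3, Olah and Ambp, at Euclidean distances of 0.42 to 0.93 on the log2 scale over the 2 comparisons. Mlycd, malonyl-CoA decarboxylase of fatty acid metabolism, was at 771.0, 777.7 and 4079.8 normalized counts in C57BL6 WT, C57BL6-BALB/c WT and Cx30-/-, and Mmp8, the neutrophil collagenase, at 8.7, 19.4 and 85.0. Their highest values lie in the Cx30-/- library by the way they were chosen. Mmp8, Glb1l3, Olah and Ambp passed the minimum only through that library, and Mlycd passed it in each library.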

How the data were processed

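Vessels were purified from whole brain, polyA RNA was sequenced as 50-base single reads without strand (Illumina TruSeq, HiSeq 2000), and each library pooled 3 mice. The authors aligned reads with Bowtie, removed reads with more than 1 match and deposited raw counts of reads on the exons of 82813 Ensembl transcripts (shared exons count for every transcript), the same counts as a fraction of the library's total, and the number of bases without coverage. The submitters' processing notes name CASAVA 1.8.2. Genome positions in the files were not used, because on chromosome 1 they run past the last feature of GRCm38. Coordinates came from GENCODE M21 (GRCm38) through the transcript IDs, of which 83.8% were named.

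The row with the largest total count stood for a gene. Normalization used the median of ratios over the 3 libraries, with factors of 1.1452, 0.9258 and 0.9532 for C57BL6 WT, C57BL6-BALB/c WT and Cx30-/- and no pseudocount. Totals behind the deposited fraction were 24830975, 21170766 and 20654144 reads. Intervals are exact (Poisson for counts, Clopper-Pearson for ratios and shares, at 95%) and cover counting error only, as reads carried no molecular identifiers. Alternatives were TMM (edgeR 4.0.16), total-count and upper-quartile scaling, size factors from the 2 libraries compared, other minimums and folds, a pseudocount of 1, and other transcript rows. The size factors and the 2-fold calls were tested on simulated counts with known folds, and that test did not cover the intervals. Promoter sequences came from RefSeq (GRCm38.p6), where all 7 members matched by symbol. Genes were named by membership of the family or of the lists with at least 2-fold differences in both comparisons with Cx30-/-, by position within 300 kb of the cluster, or as the 5 nearest to Slfn4. Other genes named were chosen after their values were seen: Irf7, Socs1, Lcn2, Ly6g, Elane, Stfa2, Mpo, Ltf, Fpr1, Slc4a1, Treml1, Lyz2, Mrc1, Cldn5, Emcn and Slco1a4. So were Mx1, Cxcl10, Il1b, Csf3r and Hp. The members and lists were chosen with earlier results of these data known.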

Additional observations from a re-analysis of the deposited data

How the results depend on the processing

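Against C57BL6 WT the count of called members, 1, became 2 without a minimum (Slfn1 and Slfn4), 0 with 50 normalized counts required in both libraries, and 2 at 1.5-fold (Slfn4 and Slfn8). Against C57BL6-BALB/c WT the count of 2 became 4 without a minimum (Slfn1, Slfn4, Slfn8 and Slfn9), 1 with the minimum in both libraries (Slfn8), 4 at 1.5-fold (Slfn3, Slfn4, Slfn5 and Slfn8) and 1 at 4-fold (Slfn4). Between the WT libraries the count of 0 became 1 without a minimum (Slfn9, lower). By construction these settings change which members are eligible. The other 25 of 33 recomputed counts stayed within 1.5 times the first value. Scaling by the total deposited count moved the median log2 ratio of all genes to 0.14 (Cx30-/- against C57BL6-BALB/c WT) and -0.13 (between the WT libraries), and with it Slfn5 to 0.77 and -0.19. Of the 147 recomputed log2 ratios of single members the other 145 moved by less than their counting interval, and that of Slfn4 ranged from 2.76 to 2.84 and from 2.41 to 2.58 against the WT libraries in the order above. No called member changed direction; Slfn1 between the WT libraries, at 0.00, ranged from -0.12 to 0.02. No paired analysis was possible because each group was 1 library, and for the same reason no replicate could be left out. Depth limits Slfn1, Slfn4 and Slfn9 most, with 4 to 24 reads in each WT library.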
